A study of Mus musculus with 9 samples.

Results

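The genes described here are 44 components of Toll-like receptor (TLR) and NF-κB signaling, chosen by symbol from the count tables of sorted muscle myeloid cells. They comprise 9 TLRs, 2 co-receptors, 4 adaptors, 14 kinases and ubiquitin ligases with their partner subunits, 7 transcription factors, and 8 inhibitors. All 44 were among the 50559 genes listed and among the 16618 that passed the low-count filter, and the smallest count of any of them in a library was 341.

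RNA-Seq was performed on CD45+CD11b+ cells, a gate that takes in macrophages, monocytes, and neutrophils, sorted from quadriceps of *mdx* mice, which lack dystrophin and serve as a model of Duchenne muscular dystrophy. All mice were *mdx* and 4.5 weeks old, and they had been given vehicle (sucralose water), the mineralocorticoid receptor (MR) antagonist spironolactone, or the glucocorticoid receptor (GR) agonist prednisolone in drinking water for 7 days. Each group had 3 libraries, and each library was a pool of 3 pairs of quadriceps. Mice of both sexes were used, no untreated or healthy mice entered these comparisons, and drug and vehicle were compared only within dystrophic muscle.

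TLRs are receptors for microbial products and for molecules released by damaged cells. After ligand binding they recruit adaptor proteins, chiefly MyD88, which assemble IRAK kinases and TRAF ubiquitin ligases; these activate the TAK1 and IκB kinase complexes, and IκB proteins are degraded so that NF-κB dimers enter the nucleus. NF-κB induces several of its own inhibitors, among them *Nfkbia*, *Nfkbie*, *Nfkbiz*, and *Tnfaip3*, so that the mRNA of these genes is widely used as a readout of the pathway. Dystrophic muscle releases damage-associated molecules, and GR agonists are known to restrain NF-κB-dependent transcription.

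The promoters of 3 inhibitor genes and of the receptor gene *Tlr2* are shown because each holds a match to the kappaB motif, which NF-κB binds. Each sequence is the RefSeq window from 250 bases before to 50 bases after the transcription start, given 5′ to 3′ on the strand of the gene, and each RefSeq window (table build GRCm38.p6) was found exactly once in GRCm39, whose coordinates are given. Capitals mark matches to the kappaB consensus, searched on both strands. These 4 genes were picked after the expression values were seen.
Nfkbia, chr12:55539383-55539682 (minus strand): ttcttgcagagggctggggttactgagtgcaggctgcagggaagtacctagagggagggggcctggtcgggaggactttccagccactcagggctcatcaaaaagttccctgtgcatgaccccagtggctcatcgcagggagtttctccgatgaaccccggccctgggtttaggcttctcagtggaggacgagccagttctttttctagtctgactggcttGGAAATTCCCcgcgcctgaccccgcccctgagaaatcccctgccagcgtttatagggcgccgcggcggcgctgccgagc
Nfkbie, chr17:45866376-45866675 (plus strand): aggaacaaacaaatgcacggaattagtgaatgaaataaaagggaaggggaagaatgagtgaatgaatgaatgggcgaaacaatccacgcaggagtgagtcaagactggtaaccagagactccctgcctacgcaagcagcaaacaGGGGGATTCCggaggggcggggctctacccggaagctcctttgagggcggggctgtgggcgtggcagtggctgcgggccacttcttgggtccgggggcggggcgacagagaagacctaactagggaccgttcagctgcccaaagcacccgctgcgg
Tnfaip3, chr10:18891109-18891408 (minus strand): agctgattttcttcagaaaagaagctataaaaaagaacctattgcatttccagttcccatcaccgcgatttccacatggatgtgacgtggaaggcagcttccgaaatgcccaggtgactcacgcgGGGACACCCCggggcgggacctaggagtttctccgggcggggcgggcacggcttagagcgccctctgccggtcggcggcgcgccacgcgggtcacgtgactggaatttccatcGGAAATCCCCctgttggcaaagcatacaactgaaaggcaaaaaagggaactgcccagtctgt
Tlr2, chr3:83748866-83749165 (minus strand): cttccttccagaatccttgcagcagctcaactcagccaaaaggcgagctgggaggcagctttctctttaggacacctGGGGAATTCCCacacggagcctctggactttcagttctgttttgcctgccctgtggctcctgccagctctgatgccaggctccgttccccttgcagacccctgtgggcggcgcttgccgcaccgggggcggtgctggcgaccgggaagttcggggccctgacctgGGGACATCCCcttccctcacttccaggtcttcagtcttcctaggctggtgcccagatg

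The match in *Nfkbia* lies from position -29 to -20 relative to the start, and that in *Nfkbie* from -106 to -97. *Tnfaip3* holds matches from -125 to -116 and from -12 to -3; its other RefSeq window, from a start further downstream, held no kappaB match and is not printed. In *Tlr2*, the stretch from -173 to -163 is a pair of overlapping matches, and a further match spans -8 to 2. In the GENCODE vM39 annotation, *Tnfaip3* begins at 18891405 and *Tlr2* at 83749074, upstream of the RefSeq starts used here. By that annotation, the *Tnfaip3* matches and the -8 to 2 match of *Tlr2* lie inside the genes. Among the 33 of 44 genes with a RefSeq window, 11 (33.3%) held a match in at least 1 window, and 2581 of all 27025 genes in the table (9.55%) did. The other 7 genes with a match were *Tnip1*, *Irak1*, *Map3k7*, *Traf3*, *Tlr3*, *Nfkb2*, and *Rel*. The sequence AGAACA, the core of the element that GR and MR bind, was found in 6 of the 33 genes (18.2%) and in 21.3% of all genes. A match is a description of these letters and does not show binding. No windows were used for *Tlr4*, *Tlr7*, *Cd14*, *Ly96*, *Ticam2*, *Tab1*, *Map3k8*, *Ikbkb*, *Nfkb1*, *Relb*, and *Nfkbiz*.

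Sequencing depth was even, at 31469815 to 32943512 counts on genes in each library. The 8 myeloid identity genes, among them *Itgam* (CD11b), *Ptprc* (CD45), and *Csf1r*, summed to 17090 to 20710 CPM (counts scaled to the normalized library total) in every library, and *Itgam* was at 978 to 1486 CPM. Vehicle replicate 3 stood apart in neutrophil markers, whose 12 genes summed to 4839 CPM there and to 743 and 981 CPM in the other vehicle libraries, and spironolactone replicate 3 also stood high at 3622 CPM. The female-specific transcript *Xist* ranged from 65.3 to 712 CPM, so that the mix of sexes differed between pools; 6 of the 44 genes (*Tlr7*, *Tlr8*, *Tlr13*, *Irak1*, *Tab3*, and *Ikbkg*) lie on the X chromosome.

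Levels are given in CPM after TMM normalization, changes as log2 fold changes ± SE from edgeR with all 9 libraries in 1 fit, and *P* values are two-sided and adjusted by the Benjamini-Hochberg method over all 16618 genes tested. A gene is said to have changed where the adjusted *P* was under 0.05. In these bulk samples, fewer cells of a type and less RNA per cell cannot be told apart.

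Together the 44 genes took 0.670%, 0.655%, and 0.689% of the counts in the 3 vehicle libraries, 0.511%, 0.573%, and 0.520% with spironolactone, and 0.657%, 0.616%, and 0.568% with prednisolone. All spironolactone shares lay below all vehicle shares, and the prednisolone shares overlapped them. Of these counts, *Cd14*, *Nfkbia*, *Tnfaip3*, and *Nfkbiz* alone made up 0.257%, 0.260%, and 0.298% of each vehicle library, 0.148%, 0.197%, and 0.178% of each spironolactone library, and 0.260%, 0.238%, and 0.156% of each prednisolone library. The other 40 genes made up 0.390% to 0.413% with vehicle, 0.342% to 0.376% with spironolactone, and 0.378% to 0.412% with prednisolone.

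Levels between genes were compared per length, as TPM, which divides counts by exon length and scales each library to the same total. In vehicle, the mRNA of *Cd14*, the co-receptor that hands lipopolysaccharide to TLR4, was highest at 2467 ± 364 TPM (SD, n = 3), followed by *Nfkbia*, which encodes IκBα, at 1825 ± 111 TPM. A wide gap separated these from *Nfkbiz* (332 ± 22.6 TPM), *Tlr13* (277 ± 20.7 TPM), *Tnfaip3* (243 ± 39.1 TPM), *Tlr2* (232 ± 19.5 TPM), *Irf5* (224 ± 8.58 TPM), and *Rela* (187 ± 15.8 TPM). From *Tlr13* to *Irf5*, each gene lay within the spread of the next. Among the receptors, *Tlr13* and *Tlr2* were followed by *Tlr8* (181 ± 35.8 TPM), *Tlr7* (161 ± 18.9 TPM), *Tlr1* (122 ± 17.5 TPM), and *Tlr9* (96.4 ± 7.95 TPM), whereas *Tlr4* was at 53.8 ± 1.65 TPM, *Tlr6* at 22.1 ± 3.39 TPM, and *Tlr3* at 14.5 ± 1.55 TPM. The lowest of the 44 by TPM were subunits of the TAK1 and IκB kinase complexes, with *Tab1* at 14.0 ± 2.15 TPM, *Ikbkg* at 9.69 ± 0.728 TPM, and *Tab3* at 9.04 ± 1.23 TPM. The length used was the union of all annotated exons, 13668 bases for *Ikbkg* and 24325 for *Ikbkb*, and a long union lowers the TPM. By mean CPM in vehicle, *Ikbkg* (30.0) lay above *Tlr3* (17.5) and *Tlr6* (24.2), whereas *Tab3* (14.4) was again lowest.

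**Figure D1:**
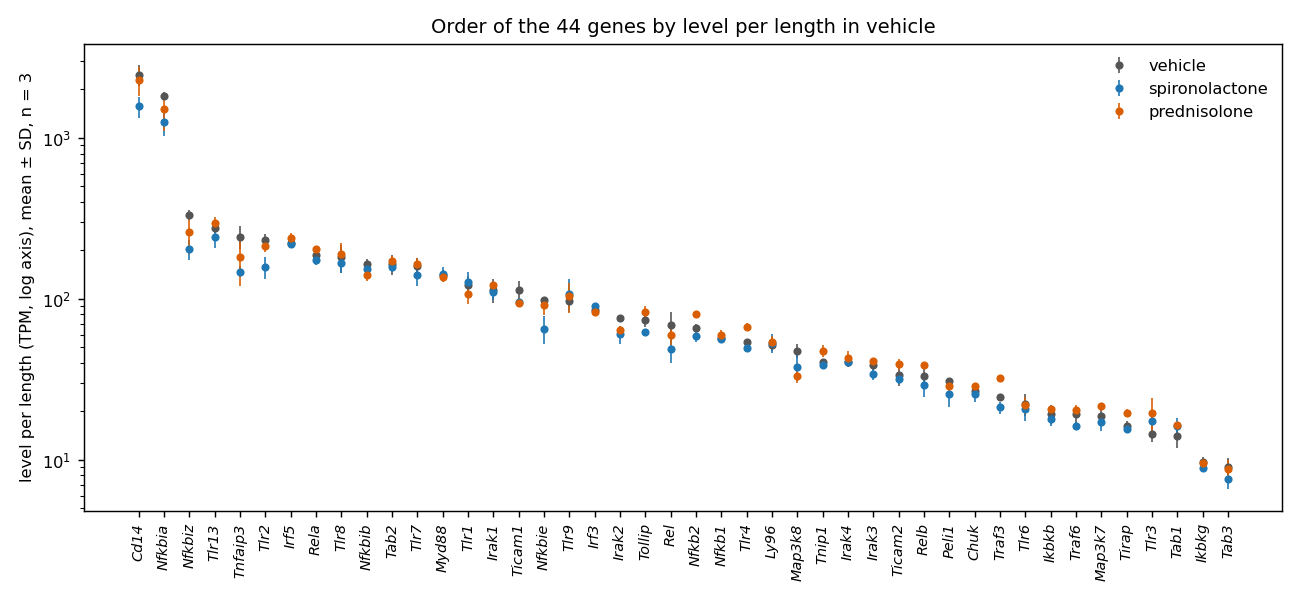
Level per length (TPM, log axis, mean ± SD of 3 libraries) of the 44 genes in vehicle, spironolactone, and prednisolone libraries, ordered by the vehicle mean. *Cd14* and *Nfkbia*, at 2467 and 1825 TPM in vehicle, stand above all others, and *Tab3* is lowest at 9.04 TPM.

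With spironolactone, 36 of the 44 genes had a lower and 8 a higher fitted level than in vehicle, with a median log2 fold change of -0.11 (all genes tested, 0.0001). No gene of the group passed the adjusted threshold in limma-voom or in edgeR with the low-count filter and every library, and 0.0181% of all genes tested passed it in edgeR. An unadjusted *P* under 0.05 was reached by 14 of the 44, all lower (4.07% of all genes tested were lower at that threshold and 5.21% higher), and DESeq2, used as an alternative, called 5 (*Tlr2*, *Cd14*, *Tnfaip3*, *Nfkbie*, and *Nfkbiz*), all lower (0.535% of all genes with an adjusted *P* in DESeq2 were called lower). Without the low-count filter, edgeR called these 5, *Rel*, and *Nfkbia*, all lower (203 of all genes). It called 2 without prednisolone replicate 3 and 1 without spironolactone replicate 2 (19 and 34 of all genes). In 14 genes all 3 spironolactone libraries lay below all vehicle libraries (6.50% of all genes tested), and in *Tlr3* and *Irf3* all lay above (6.99%). Without vehicle replicate 3, the library high in neutrophil markers, 38 of the 44 were lower and 9 had an unadjusted *P* under 0.05, and without spironolactone replicate 3, 9 that were lower reached it. Of all genes, 677 were lower at that threshold with every library, and 608 and 432 in these fits.

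With prednisolone, 25 were lower and 19 higher than in vehicle, with a median log2 fold change of -0.01 (all genes tested, -0.01). The split turned to 20 lower and 24 higher with scaling to library totals or without prednisolone replicate 2. It was 21 lower and 23 higher without a low-count filter, and 22 each without vehicle replicate 1. One kinase gene, *Map3k8*, passed the adjusted threshold and fell (1.76% of all genes tested passed it in either direction), and DESeq2 called 3 (*Map3k8*, *Ticam1*, and *Irak2*), all lower (background 2.03%). An unadjusted *P* under 0.05 was reached by 6 genes that were lower (background 7.07%) and 3 that were higher (background 7.13%), the latter being 5 without prednisolone replicate 2 and 1 without prednisolone replicate 3 (1185 of all genes with every library, 856 and 990 in these fits). All prednisolone libraries lay below all vehicle libraries in 8 genes (9.27% of all genes tested) and above them in 3 (10.4%). Scaled to library totals, these numbers were 7 and 6, with a median log2 fold change of 0.01 over all genes. Because the 3 vehicle libraries served as the reference for both drugs, the changes of each are given side by side below and no overlap between them is read as a result.

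Between the drugs, 33 genes were lower and 11 higher with spironolactone than with prednisolone, with a median log2 difference of -0.12 (all genes tested, 0.03). *Tlr4* and *Traf3* passed the adjusted threshold, both lower with spironolactone (5.17% of all genes tested passed it), and DESeq2 called 4 (*Tlr4*, *Traf3*, *Nfkb2*, and *Tollip*), all lower (background 5.43%). An unadjusted *P* under 0.05 was reached by 12 genes lower with spironolactone (background 11.1%) and 4 higher (background 11.4%), and the libraries of the 2 drugs did not overlap in 12 lower genes (background 15.2%) and 2 higher ones (background 15.1%). Among those with such a *P*, *Tlr2* (-0.33 ± 0.14, adjusted *P* = 0.17), *Cd14* (-0.44 ± 0.19, adjusted *P* = 0.20), and *Nfkbie* (-0.39 ± 0.14, adjusted *P* = 0.12) were lower with spironolactone. *Tlr1* (0.34 ± 0.12, adjusted *P* = 0.11) and *Nfkbib* (0.23 ± 0.10, adjusted *P* = 0.22) were higher, and the others are given by gene below. The 12 lower genes with an unadjusted *P* under 0.05 became 6 without spironolactone replicate 1, spironolactone replicate 3, or prednisolone replicate 1, where the number over all genes went from 1847 to 1858, 1416, and 1419. The 4 higher ones became 2 without spironolactone replicate 1 or 2 or prednisolone replicate 3 and 0 without prednisolone replicate 2, where the number over all genes went from 1895 to 1875, 1656, 1559, and 1487.

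**Figure D2:**
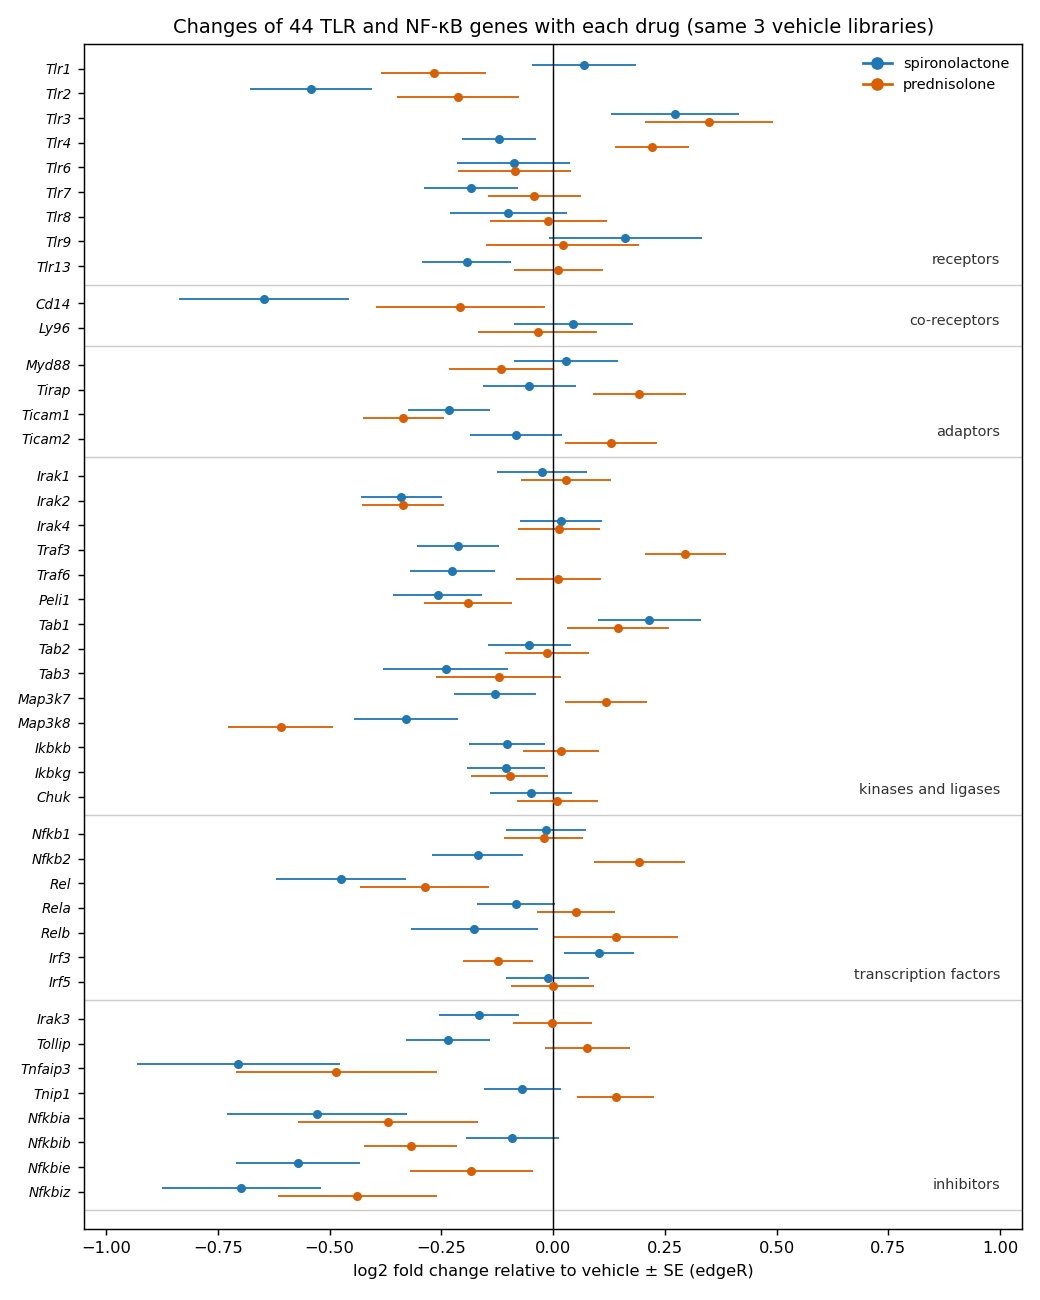
Log2 fold change ± SE relative to vehicle for each of the 44 genes with spironolactone (blue) and prednisolone (orange), grouped by role; both use the same 3 vehicle libraries. The 8 inhibitor genes all lie left of 0 with spironolactone, from -0.70 to -0.07.

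Receptors and co-receptors differed among themselves, with the largest value in the fit of all 9 libraries for *Cd14* with spironolactone and for *Tlr3* with prednisolone. *Tlr2*, the receptor for bacterial lipoproteins, was at 247, 308, and 316 CPM in vehicle, 160, 232, and 207 CPM with spironolactone, and 264, 261, and 226 CPM with prednisolone. All spironolactone values lay below all vehicle values, whereas prednisolone values overlapped vehicle. Its log2 fold change was -0.54 ± 0.14 for spironolactone (adjusted *P* = 0.17) and -0.21 ± 0.14 for prednisolone (adjusted *P* = 0.53). *Cd14* was at 779, 991, and 1149 CPM in vehicle, 492, 705, and 668 CPM with spironolactone, and 1005, 877, and 645 CPM with prednisolone. Again all 3 spironolactone libraries lay below vehicle, and prednisolone replicate 3 alone lay below the vehicle range. The log2 fold change of *Cd14* was -0.65 ± 0.19 for spironolactone (adjusted *P* = 0.26) and -0.21 ± 0.19 for prednisolone (adjusted *P* = 0.69). This prednisolone value lay between -0.35 and -0.05 in the fits with 1 library left out.

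*Tlr4*, the lipopolysaccharide receptor, behaved otherwise. It was at 79.3, 86.0, and 91.5 CPM in vehicle, 78.3, 79.6, and 77.9 CPM with spironolactone, and 96.1, 98.9, and 104 CPM with prednisolone. Prednisolone libraries lay above all others, and spironolactone libraries reached into the lower end of the vehicle range. The direct comparison gave a log2 difference of -0.34 ± 0.08 for spironolactone against prednisolone (adjusted *P* = 0.031, 95% interval -0.52 to -0.17), whereas the changes relative to vehicle were 0.22 ± 0.08 for prednisolone (adjusted *P* = 0.23) and -0.12 ± 0.08 for spironolactone (adjusted *P* = 0.71). This difference between the drugs passed the threshold in all 11 alternative analyses of the 9 libraries, but not in the 6 fits that left out 1 library of either drug (adjusted *P* up to 0.11). A gene model on the opposite strand, *Gm69151*, shares exon sequence with *Tlr4*, and since the strand setting of the counting is not given in the sources used here, their counts cannot be told apart. Exons of *Tlr3*, *Tirap*, *Irak2*, *Irak3*, *Irak4*, *Peli1*, *Tab1*, *Tab3*, *Ikbkb*, *Nfkb1*, *Rela*, *Irf3*, *Irf5*, and *Tnip1* also overlap opposite-strand gene models, with the same limit. *Ly96*, which encodes the MD-2 subunit of the TLR4 complex, was at 12.5 to 16.2 CPM in vehicle, 13.1 to 16.5 CPM with spironolactone, and 13.5 to 15.3 CPM with prednisolone, groups that overlapped throughout.

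*Tlr1*, which pairs with TLR2, was at 102, 93.6, and 84.2 CPM in vehicle, 108, 99.5, and 85.9 CPM with spironolactone, and 77.3, 67.1, and 88.0 CPM with prednisolone. Its prednisolone value was -0.27 ± 0.12 relative to vehicle (adjusted *P* = 0.31), and that of spironolactone 0.07 ± 0.12 (adjusted *P* = 0.91). The groups overlapped. *Tlr3*, the receptor for double-stranded RNA, was at 18.6, 17.2, and 16.7 CPM in vehicle, 21.7, 21.7, and 20.01 CPM with spironolactone, and 17.7, 21.3, and 27.9 CPM with prednisolone. All spironolactone libraries exceeded all vehicle libraries, yet neither value passed the test (0.27 ± 0.14, adjusted *P* = 0.60, with spironolactone and 0.35 ± 0.14, adjusted *P* = 0.28, with prednisolone). Depending on the library left out, the prednisolone value of *Tlr3* was 0.15 to 0.49. The remaining receptors, namely *Tlr6* and the nucleic acid sensors *Tlr7*, *Tlr8*, *Tlr9*, and *Tlr13*, had log2 fold changes from -0.19 (*Tlr13*) to 0.16 (*Tlr9*) with spironolactone and from -0.09 (*Tlr6*) to 0.02 (*Tlr9*) with prednisolone, and their groups overlapped in both.

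**Figure D3:**
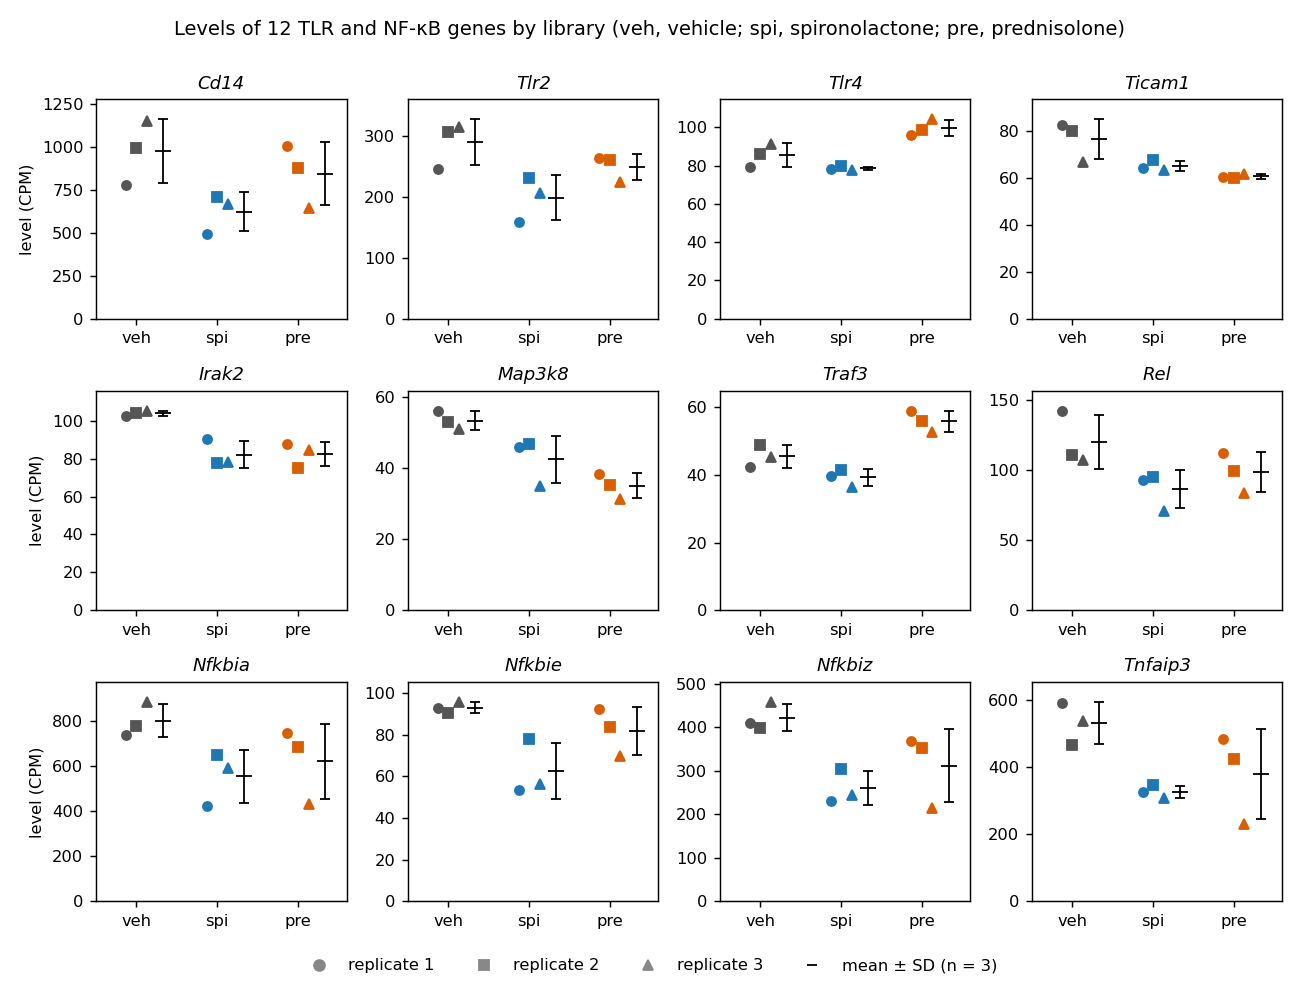
Level in CPM of 12 of the genes in each of the 9 libraries (symbols mark the replicate number, which was not used to pair libraries across groups), with the group mean ± SD (n = 3) beside the points. Spironolactone libraries lie below all vehicle libraries for *Cd14*, *Tlr2*, *Irak2*, *Map3k8*, *Traf3*, *Rel*, and the 4 inhibitors, and prednisolone replicate 3 is the lowest prednisolone library for *Cd14* and those inhibitors.

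Among the 4 adaptor genes, only *Ticam1* had all libraries of a drug outside the vehicle range. This gene encodes TRIF, the adaptor of TLR3 and of internalized TLR4 that leads to type I interferon. Its mRNA was at 82.4, 79.9, and 66.8 CPM in vehicle, 64.1, 67.4, and 63.4 CPM with spironolactone, and 60.4, 59.7, and 61.6 CPM with prednisolone. Prednisolone libraries lay below all vehicle and all spironolactone libraries, and the log2 fold change was -0.33 ± 0.09 for prednisolone (adjusted *P* = 0.087) and -0.23 ± 0.09 for spironolactone (adjusted *P* = 0.44). *Myd88*, the adaptor of nearly all TLRs and of the interleukin-1 receptor, was at 107, 127, and 138 CPM in vehicle, 110, 142, and 126 CPM with spironolactone, and 121, 103, and 118 CPM with prednisolone. These ranges overlapped, and the 95% interval of the log2 fold change was -0.22 to 0.28 with spironolactone and -0.37 to 0.13 with prednisolone. *Acaa1a* overlaps exons of *Myd88* on the opposite strand.

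*Tirap*, which bridges MyD88 to TLR2 and TLR4, was at 25.1, 23.2, and 26.1 CPM in vehicle, 21.4, 25.2, and 25.2 CPM with spironolactone, and 29.7, 26.0, and 29.4 CPM with prednisolone. The drugs did not overlap, with a log2 difference of -0.25 ± 0.10 for spironolactone against prednisolone (adjusted *P* = 0.18). For *Ticam2*, which links TRIF to TLR4, the same difference was -0.21 ± 0.10 (adjusted *P* = 0.24), and the drugs did not overlap at 38.0 to 45.5 CPM and 45.6 to 51.6 CPM. The exons of *Ticam2* are partly shared with *Tmed7* on the same strand, so that its counts are uncertain.

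Of the kinases and ubiquitin ligases, 12 of 14 had a lower fitted level with spironolactone than with vehicle (median log2 fold change -0.12) and 6 of 14 with prednisolone (median 0.01). *Map3k8* encodes the kinase that couples TLR signaling to ERK and is held inactive by the precursor protein of *Nfkb1*. It was at 56.2, 53.1, and 51.0 CPM in vehicle, 45.9, 46.8, and 34.9 CPM with spironolactone, and 38.3, 35.4, and 31.3 CPM with prednisolone. All libraries of either drug lay below all vehicle libraries. *Map3k8* fell with prednisolone (log2 fold change -0.61 ± 0.12, adjusted *P* = 0.019) and was at -0.33 ± 0.12 for spironolactone (adjusted *P* = 0.38), and the drugs differed from each other by 0.28 ± 0.12 (adjusted *P* = 0.17). The call with prednisolone was lost without vehicle replicate 2, prednisolone replicate 2, or prednisolone replicate 3 (adjusted *P* = 0.057, 0.11, and 0.092), with log2 fold changes of -0.61, -0.62, and -0.53. Exons of *4833419F23Rik* overlap *Map3k8* on the opposite strand.

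*Traf3* encodes a ubiquitin ligase of the interferon branch that also restrains the alternative NF-κB pathway. Its mRNA was at 42.3, 49.0, and 45.2 CPM in vehicle, 39.8, 41.5, and 36.4 CPM with spironolactone, and 59.0, 56.0, and 52.7 CPM with prednisolone. The 3 groups did not overlap, with spironolactone lowest and prednisolone highest. *Traf3* was lower with spironolactone than with prednisolone by a log2 difference of -0.51 ± 0.09 (adjusted *P* = 0.0081, 95% interval -0.71 to -0.31), and this passed the threshold in all 11 alternatives and in all 9 fits with 1 library left out (highest adjusted *P* = 0.045). Relative to vehicle the values were 0.30 ± 0.09 for prednisolone (adjusted *P* = 0.13) and -0.21 ± 0.09 for spironolactone (adjusted *P* = 0.50).

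*Irak2*, a kinase that sustains signaling downstream of MyD88, was at 103, 104.5, and 105 CPM in vehicle, 90.8, 77.7, and 78.6 CPM with spironolactone, and 87.7, 75.3, and 84.5 CPM with prednisolone. Every drug library lay below every vehicle library, and the log2 fold change was -0.34 ± 0.09 with each drug (adjusted *P* = 0.19 with spironolactone and 0.085 with prednisolone). The 2 drugs differed by -0.003 ± 0.09 (95% interval -0.20 to 0.19). *Traf6*, the ligase that passes the signal to TAK1, was at 47.9, 42.2, and 44.7 CPM in vehicle, 37.4, 40.6, and 37.3 CPM with spironolactone, and 49.3, 40.8, and 45.7 CPM with prednisolone. Spironolactone libraries were below all others, with log2 values of -0.23 ± 0.10 relative to vehicle (adjusted *P* = 0.49) and -0.24 ± 0.10 relative to prednisolone (adjusted *P* = 0.16).

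*Peli1*, a ubiquitin ligase that acts on IRAK proteins, was at 66.8, 68.5, and 71.4 CPM in vehicle, 62.7, 61.6, and 48.4 CPM with spironolactone, and 59.3, 61.4, and 60.3 CPM with prednisolone. Both drugs lay below vehicle in all libraries, with log2 fold changes of -0.26 ± 0.10 (adjusted *P* = 0.43) and -0.19 ± 0.10 (adjusted *P* = 0.42). *Map3k7*, which encodes TAK1, was at 53.9, 45.6, and 48.4 CPM in vehicle, 48.5, 44.9, and 41.7 CPM with spironolactone, and 53.8, 52.6, and 54.1 CPM with prednisolone, and the drugs did not overlap (-0.25 ± 0.09, adjusted *P* = 0.12). The other 8 genes of this role (*Irak1*, *Irak4*, *Tab1*, *Tab2*, *Tab3*, *Ikbkb*, *Ikbkg*, and *Chuk*) had log2 fold changes from -0.24 (*Tab3*) to 0.22 (*Tab1*) with spironolactone and from -0.12 (*Tab3*) to 0.14 (*Tab1*) with prednisolone. Among them, the IκB kinase subunits were close to vehicle, with 95% intervals of -0.29 to 0.08 for *Ikbkb* and -0.25 to 0.15 for *Chuk* with spironolactone, and -0.17 to 0.20 for *Ikbkb* and -0.19 to 0.20 for *Chuk* with prednisolone. For *Ikbkg*, which shares exon sequence with *G6pdx* on the opposite strand, all libraries of each drug lay below vehicle (26.9 to 28.7 and 27.4 to 28.5 CPM against 28.9 to 30.7 CPM), by log2 values of -0.11 and -0.10.

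Of the transcription factors, *Rel*, the c-Rel subunit, had the largest value. It was at 142, 111, and 107 CPM in vehicle, 92.9, 95.1, and 70.9 CPM with spironolactone, and 112, 99.0, and 83.5 CPM with prednisolone. Spironolactone libraries lay below all vehicle libraries and prednisolone libraries overlapped them, with log2 fold changes of -0.47 ± 0.15 (adjusted *P* = 0.28, and 0.0019, without a low-count filter, to 0.33 over the 11 alternatives) and -0.29 ± 0.14 (adjusted *P* = 0.40). *Rela*, the transactivating p65 subunit, was at 143, 140, and 132 CPM in vehicle, 120, 143, and 129 CPM with spironolactone, and 147, 138, and 145 CPM with prednisolone. *Nfkb1*, the precursor of p50, was at 168, 165, and 167 CPM in vehicle, 153, 169, and 173 CPM with spironolactone, and 180, 151, and 162 CPM with prednisolone. Neither separated the groups, and the 95% intervals of the log2 fold change were -0.27 to 0.10 and -0.14 to 0.24 for *Rela* and -0.21 to 0.18 and -0.21 to 0.17 for *Nfkb1*, with spironolactone and prednisolone, respectively.

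*Nfkb2* and *Relb* encode subunits of the alternative pathway. *Nfkb2* was at 106, 121, and 131 CPM in vehicle, 94.9, 118, and 105 CPM with spironolactone, and 142, 132, and 135 CPM with prednisolone. Prednisolone libraries were above all others, and the log2 difference of spironolactone against prednisolone was -0.36 ± 0.10 (adjusted *P* = 0.055), which passed the threshold in DESeq2 among others (0.013 to 0.081 over the 11 alternatives). *Relb* was at 33.1, 35.7, and 45.5 CPM in vehicle, 27.3, 39.1, and 34.7 CPM with spironolactone, and 45.4, 39.3, and 41.2 CPM with prednisolone, with a difference between the drugs of -0.32 ± 0.14 (adjusted *P* = 0.21). Exons of *Psd* overlap *Nfkb2* on the opposite strand. *Irf3*, the interferon regulatory factor downstream of TRIF, ran the other way, at 65.8, 70.20, and 65.4 CPM in vehicle, 70.24, 71.5, and 74.4 CPM with spironolactone, and 62.1, 59.6, and 63.2 CPM with prednisolone, with groups that did not overlap and a log2 difference of 0.23 ± 0.08 between the drugs (adjusted *P* = 0.11). *Irf5*, which acts with MyD88, ranged from 335 to 393 CPM over all 9 libraries, and its groups overlapped.

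Of the inhibitor genes, 8 of 8 had a lower fitted level with spironolactone than with vehicle, with a median log2 fold change of -0.38. In 5 of 8, all spironolactone libraries lay below all vehicle libraries (6.50% of all genes tested). The direction held for 8 of 8 in every alternative and in every fit with 1 library left out. With prednisolone, 6 of 8 were lower and the median was -0.25. That number was 5 in DESeq2, with upper quartile scaling, with library totals, and without a low-count filter. It was also 5 without vehicle replicate 3 or prednisolone replicate 2 or 3, and 7 without prednisolone replicate 1. None passed the adjusted threshold in edgeR with either drug, where 5 of 8 were lower at an unadjusted *P* under 0.05 with spironolactone (background 4.07%) and 2 of 8 with prednisolone (background 7.07%). The 5 became 2 without vehicle replicate 1 and 3 without vehicle replicate 3 or spironolactone replicate 1 (677 of all genes with every library, and 939, 608, and 879). The 2 became 4 without prednisolone replicate 1 and 1 without vehicle replicate 1 or 3 or prednisolone replicate 3 (1175 of all genes, and 938, 1672, 963, and 958). DESeq2 called 3 (*Tnfaip3*, *Nfkbie*, and *Nfkbiz*) lower with spironolactone (background 0.535%) and 0 with prednisolone (background 2.03%), and limma-voom called 0 with either. Without a low-count filter, edgeR called 4 lower with spironolactone and 2 lower with prednisolone (203 and 494 of all genes).

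*Tnfaip3*, which encodes a ubiquitin-editing enzyme that ends NF-κB activation, was at 592, 468, and 537 CPM in vehicle, 326, 346, and 308 CPM with spironolactone, and 485, 426, and 229 CPM with prednisolone. The spironolactone libraries were close together and well below vehicle, whereas those of prednisolone ranged from within the vehicle values to below all spironolactone values. The log2 fold change was -0.70 ± 0.23 for spironolactone (adjusted *P* = 0.34, and 1.56e-07, without a low-count filter, to 0.47 over the 11 alternatives) and -0.48 ± 0.23 for prednisolone (adjusted *P* = 0.38, and 0.0019, without that filter, to 0.46 over the alternatives). The prednisolone value of *Tnfaip3* ranged from -0.70 to -0.22 over the fits with 1 library left out. *Nfkbiz*, which encodes a nuclear IκB protein that also activates part of the secondary response, was at 410, 398, and 457 CPM in vehicle, 231, 305, and 245 CPM with spironolactone, and 367, 352, and 215 CPM with prednisolone. Libraries of both drugs lay below all vehicle libraries, with log2 fold changes of -0.70 ± 0.18 (adjusted *P* = 0.19, and 2.02e-07, without a low-count filter, to 0.29 over the alternatives) and -0.44 ± 0.18 (adjusted *P* = 0.29, and 0.0078, without that filter, to 0.31 over the alternatives). For *Nfkbiz* with prednisolone, the fits with 1 library left out gave -0.57 to -0.23. Both *Tnfaip3* and *Nfkbiz* passed the threshold with prednisolone in edgeR without a low-count filter. With spironolactone, the alternatives in which they passed it were that fit and DESeq2 (adjusted *P* = 0.021 and 0.0052 in DESeq2).

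*Nfkbia* was at 741, 781, and 885 CPM in vehicle, 426, 652, and 591 CPM with spironolactone, and 746, 685, and 433 CPM with prednisolone. All spironolactone libraries and 2 of 3 prednisolone libraries were below the vehicle range, and the log2 fold change was -0.53 ± 0.20 (adjusted *P* = 0.45, and 0.00043, without a low-count filter, to 0.55 over the alternatives) and -0.37 ± 0.20 (adjusted *P* = 0.46, and 0.050 to 0.53 over the alternatives). Leaving out 1 library moved the prednisolone value of *Nfkbia* to between -0.52 and -0.16. *Nfkbie*, which encodes IκBε, was at 93.0, 90.2, and 95.6 CPM in vehicle, 53.5, 78.0, and 56.1 CPM with spironolactone, and 92.4, 83.5, and 69.6 CPM with prednisolone. Vehicle libraries were tightly grouped above all spironolactone libraries, and the log2 fold change was -0.57 ± 0.14 for spironolactone (adjusted *P* = 0.16, and 5.83e-05, without a low-count filter, to 0.23 over the alternatives, with 0.012 in DESeq2) and -0.18 ± 0.14 for prednisolone (adjusted *P* = 0.61). *Nfkbib*, which encodes IκBβ, was at 84.6, 96.3, and 84.1 CPM in vehicle, 73.0, 91.4, and 84.4 CPM with spironolactone, and 78.2, 69.1, and 65.3 CPM with prednisolone. Here the prednisolone libraries were the ones below all vehicle libraries, with a log2 fold change of -0.32 ± 0.10 (adjusted *P* = 0.16) next to -0.09 ± 0.10 for spironolactone (adjusted *P* = 0.86). Exons of *Gm36634*, *Gm67161*, and *Sirt2* overlap *Nfkbia*, *Tnfaip3*, and *Nfkbib*, respectively, on the opposite strand, whereas no gene overlaps *Nfkbie* or *Nfkbiz*.

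*Tollip*, which binds IRAK1 and dampens receptor signaling, was at 90.6, 82.4, and 89.0 CPM in vehicle, 70.9, 76.8, and 74.9 CPM with spironolactone, and 105, 85.6, and 86.1 CPM with prednisolone. Spironolactone libraries lay below all others, with log2 values of -0.24 ± 0.10 relative to vehicle (adjusted *P* = 0.46) and -0.31 ± 0.09 relative to prednisolone (adjusted *P* = 0.073, and 0.037 to 0.11 over the alternatives). *Tnip1*, the partner of the *Tnfaip3* product, was at 92.3, 98.5, and 94.8 CPM in vehicle, 89.9, 94.0, and 88.3 CPM with spironolactone, and 105, 95.6, and 114 CPM with prednisolone, with a difference between the drugs of -0.21 ± 0.09 (adjusted *P* = 0.17). *Irak3*, an IRAK that blocks the release of IRAK1 from the receptor, was at 47.4 to 53.7 CPM in vehicle, 41.4 to 47.8 CPM with spironolactone, and 48.6 to 50.9 CPM with prednisolone, and the drugs did not overlap (-0.16 ± 0.09, adjusted *P* = 0.30).

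Leaving out prednisolone replicate 3, the library with the lowest *Tnfaip3*, *Nfkbia*, *Nfkbiz*, and *Cd14* of its group, changed the prednisolone median of the inhibitors from -0.25 to -0.12. In the same fit, which pools the spread over fewer libraries, *Tnfaip3* (adjusted *P* = 0.035) and *Nfkbiz* (adjusted *P* = 0.043) passed the threshold for spironolactone against vehicle, and over all 9 fits with 1 library left out their adjusted *P* reached 0.74 and 0.56. *Nfkbie* (adjusted *P* = 0.036, reaching 0.48 over these fits) passed it without spironolactone replicate 2.

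Further components of the pathway were read from a list of 58 genes, all of which passed the filter. Relative to vehicle, 31 were lower and 27 higher with prednisolone (median -0.03), and 2 fell (1.76% of all genes tested changed), namely *Irf1*, an interferon regulatory factor (89.2 ± 3.24 CPM in vehicle and 63.7 ± 1.89 CPM with prednisolone; log2 fold change -0.49 ± 0.09, adjusted *P* = 0.012), and *Otulin*, a deubiquitinase of linear chains (54.4 ± 3.71 and 41.0 ± 1.67 CPM; -0.41 ± 0.08, adjusted *P* = 0.026). DESeq2 called 6, of which 5 were lower (background 2.03%), edgeR without a low-count filter called 8, of which 7 were lower (494 of all genes), and edgeR with a library left out called 0 (without vehicle replicate 2 or prednisolone replicate 3), 1 (without vehicle replicate 3 or prednisolone replicate 1 or 2), or 2 to 3 (69 to 826 of all genes). The 1 called without prednisolone replicate 2 was higher, as was 1 of the 3 called without vehicle replicate 1. With spironolactone, 35 were lower and 23 higher (median -0.03), and none passed in edgeR or in limma-voom, whereas DESeq2 called 1 higher (181 of all genes) and edgeR without a low-count filter 1 higher and 1 lower (325 and 203 of all genes). In edgeR 5 genes were lower (background 4.07%) and 3 higher (background 5.21%) at an unadjusted *P* under 0.05, the latter being 5 without spironolactone replicate 1 and 1 without spironolactone replicate 3 (866 of all genes with every library, and 874 and 686). The smallest adjusted *P* was that of *Lbp* (0.61 ± 0.15, adjusted *P* = 0.16), followed by *Birc3* (-0.35 ± 0.10, adjusted *P* = 0.21) and *Tlr5* (-0.48 ± 0.14, adjusted *P* = 0.24). Between the drugs 7 of 58 differed, next to 5.17% of all genes tested, and the number was 12 without a low-count filter (1940 of all genes). With a library left out it was 1 without prednisolone replicate 2, 3 without spironolactone replicate 2 or 3 or prednisolone replicate 1, and 5 to 9 otherwise (232 to 1898 of all genes). *Tlr5*, the flagellin receptor, was lower with spironolactone (10.9 ± 0.751 CPM) than with prednisolone (22.5 ± 4.06 CPM), by a log2 difference of -1.04 ± 0.14 (adjusted *P* = 0.0018). *Irf1* (0.48 ± 0.09, adjusted *P* = 0.0078), *Irf8* (0.45 ± 0.09, adjusted *P* = 0.013), *Nod1* (0.69 ± 0.14, adjusted *P* = 0.018), *Otulin* (0.39 ± 0.08, adjusted *P* = 0.019), *Ly86* (0.65 ± 0.15, adjusted *P* = 0.025), and *Socs1* (0.81 ± 0.21, adjusted *P* = 0.041) were higher.

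Of 38 genes widely known as NF-κB targets in myeloid cells, 37 passed the filter. Their summed level was 9074, 10840, and 11600 CPM in vehicle, 6622, 8509, and 7361 CPM with spironolactone, and 6122 to 9528 CPM with prednisolone. With prednisolone 29 of 37 had a lower fitted level (median -0.47), and 6 fell, next to 1.76% of all genes tested that changed. DESeq2 called 10, all lower (background 2.03%), edgeR without a low-count filter 19 of 38, of which 17 were lower and 2 higher (494 and 525 of all genes), and edgeR with a library left out 4 to 7 (69 to 826), the 4 being without vehicle replicate 2 or 3, spironolactone replicate 2, or prednisolone replicate 2. The 6 were the chemokine genes *Ccl4* (156 ± 15.7 to 61.4 ± 9.68 CPM; -1.34 ± 0.11, adjusted *P* = 0.00022) and *Ccl3* (-0.97 ± 0.16, adjusted *P* = 0.0097), *Ccrl2* (-1.11 ± 0.17, adjusted *P* = 0.0089), *Gadd45b* (-0.97 ± 0.15, adjusted *P* = 0.0089), *Zfp36* (-0.66 ± 0.14, adjusted *P* = 0.034), and *Bcl2a1b* (-0.45 ± 0.10, adjusted *P* = 0.030). *Bcl2a1b* has near-identical paralogs, so that its counts are uncertain. With spironolactone 31 of 37 were lower (median -0.48), none passed in edgeR, 13 that were lower had an unadjusted *P* under 0.05 (background 4.07%), and DESeq2 called 5, all lower (background 0.535%), and limma-voom 0. Without a low-count filter 28 of 38 were lower at an unadjusted *P* under 0.05 (994 of all genes) and edgeR called 19, all lower (203 of all genes), on the 2 groups alone it called 1 (4 of all genes), and with a library left out 0 to 3 (0 to 34 of all genes), with 3 without prednisolone replicate 3 and 2 without vehicle replicate 1. The smallest adjusted *P* belonged to *Ccl4* (105 ± 1.78 CPM; -0.57 ± 0.11, adjusted *P* = 0.11), *Ccrl2* (-0.81 ± 0.17, adjusted *P* = 0.13), and *Zc3h12a* (-0.54 ± 0.14, adjusted *P* = 0.19).

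Between the drugs 6 of the 37 targets differed, and 5.17% of all genes tested did. The number depended on single libraries, at 1 without prednisolone replicate 2 (232 of all genes, against 859), 2 without spironolactone replicate 3 (270), 3 without spironolactone replicate 2 (412) or prednisolone replicate 1 (304), and 10 without vehicle replicate 1 (1898), and was 14 of 38 without a low-count filter (1940). *Ccl4* (0.77 ± 0.11, adjusted *P* = 0.0025), *Cd40* (0.85 ± 0.17, adjusted *P* = 0.012), *Bcl2a1b* (0.47 ± 0.10, adjusted *P* = 0.015), *Ccl5* (1.20 ± 0.26, adjusted *P* = 0.022), and *Gadd45b* (0.64 ± 0.15, adjusted *P* = 0.033) were higher with spironolactone, and the costimulatory gene *Cd80* (-0.90 ± 0.17, adjusted *P* = 0.015) was lower.

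**Figure D4:**
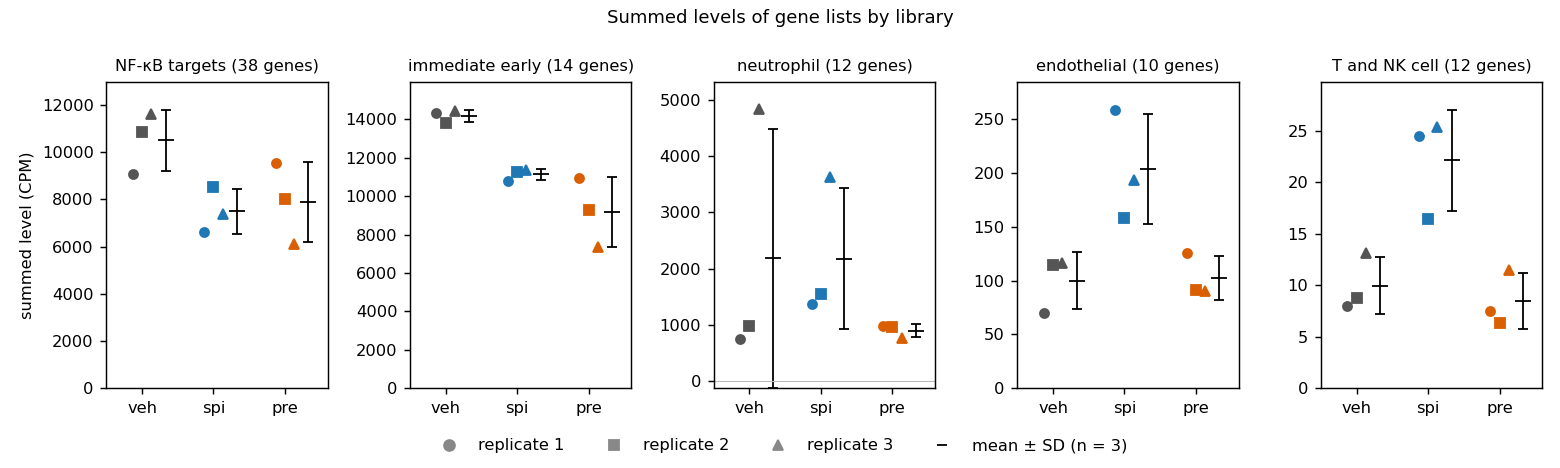
Summed level in CPM of 5 gene lists in each library (symbols mark the replicate number), with the group mean ± SD (n = 3). All 3 spironolactone libraries lie below all vehicle libraries for NF-κB targets and immediate early genes, vehicle replicate 3 is highest in neutrophil genes at 4839 CPM, and endothelial and T and NK cell genes are highest with spironolactone.

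Other gene lists moved with the groups. The 14 immediate early genes, which respond to signaling and also to tissue dissociation, summed to 13820 to 14420 CPM in vehicle, 10790 to 11350 CPM with spironolactone, and 7331 to 10950 CPM with prednisolone, so that all libraries of both drugs lay below all vehicle libraries. Of the 14, 7 fell with prednisolone (1.76% of all genes tested changed) and none passed the adjusted threshold in edgeR with spironolactone, where 8 were lower at an unadjusted *P* under 0.05 (background 4.07%), DESeq2 called 2, both lower (background 0.535%), and limma-voom 0. Without a low-count filter, edgeR called 7 lower with spironolactone and 11 with prednisolone (203 and 494 of all genes). The 7 that fell with prednisolone became 2 without vehicle replicate 2 or prednisolone replicate 2 or 3, and 3 without vehicle replicate 3, where the number over all genes went from 293 to 127, 69, 119, and 179. *Zfp36* and *Ier3* are also in the list of NF-κB targets. Prednisolone replicate 3 was lowest in both lists. Endothelial genes summed to 69.6 to 116 CPM in vehicle, 158 to 259 CPM with spironolactone, and 90.5 to 126 CPM with prednisolone. In the same order, T and NK cell genes were at 7.94 to 13.1, 16.4 to 25.4, and 6.30 to 11.5 CPM, and skeletal muscle genes at 261 to 399.5, 500 to 840.1, and 394 to 596 CPM. The 12 neutrophil genes were at 743 to 4839 CPM in vehicle, 1370 to 3622 CPM with spironolactone, and 764 to 974 CPM with prednisolone. Relative to vehicle, 10 of the 12 were lower and 2 higher with prednisolone (median -2.69), and 5 that were lower had an unadjusted *P* under 0.05 (background 7.07%). With spironolactone 6 were lower and 6 higher. Between the drugs, 9 of 12 were higher with spironolactone without overlap (background 15.1%). No neutrophil gene passed the adjusted threshold in edgeR. B cell genes were at 6.86 to 8.91 CPM in vehicle, 9.43 to 12.6 CPM with spironolactone, and 4.13 to 6.68 CPM with prednisolone, and 1 of 8 B cell and 2 of 12 T and NK cell genes had no counts in any library. Dendritic cell genes were at 215 to 259, 245 to 335, and 204 to 256 CPM, and monocyte genes at 1580 to 3263, 1933 to 2266, and 2777 to 3637 CPM, in the same order of groups. F4/80hi macrophage genes were at 5077 to 6063, 5805 to 6878, and 4578 to 5586 CPM, sums carried mostly by *C1qa*, *C1qb*, and *C1qc*. With prednisolone 6 of these 11 genes were higher and 5 lower than in vehicle (median 0.001), and none passed the test in edgeR (1.76% of all genes tested did), whereas DESeq2 called 2 and limma-voom 1 higher (385 and 160 of all genes) and edgeR without a low-count filter 3 higher and 1 lower (525 and 494). Further edgeR fits called 2 higher without vehicle replicate 1, and 1 higher without vehicle replicate 3 or with robust=FALSE (412, 85, and 151 of all genes). An unadjusted *P* under 0.05 was reached by *C1qb* and *Fcgr1*, which were lower (-0.30 ± 0.13 and -0.43 ± 0.18, adjusted *P* = 0.30 and 0.29), and by *Lyve1*, *Cd163*, and *Timd4*, whose prednisolone values lay above all vehicle libraries (1.44 ± 0.34, adjusted *P* = 0.082, 0.86 ± 0.23, adjusted *P* = 0.099, and 1.08 ± 0.42, adjusted *P* = 0.29). The fibro-adipogenic genes were at 1019 to 1275, 1203 to 1612, and 1275 to 1282 CPM. The part of these lists in the levels of the TLR and NF-κB genes was not tested.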

How the data were processed

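The deposited values are whole-number counts per gene that the authors made from mm39 alignments, and HISAT2 2.2.1, HTSeq 0.11.3, and DESeq2 1.32.0 are named in the submitters' processing notes. The annotation release and the strand setting are not given in the sources used here. From 17.2% to 21.8% of the counted reads fell on the 5 closing lines of each file that name no gene, which were left out. Comparison tables with the authors' own log2 fold changes and *P* values were not used.

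The 3 groups were taken from the treatment labels. Counts were tested in R 4.3.3 with edgeR 4.0.16 (quasi-likelihood F test, TMM, robust=TRUE, all 9 libraries in 1 fit without covariates, two-sided), after filterByExpr (minimum count 10, minimum total 15) had left 16618 genes, with Benjamini-Hochberg adjustment over these and a threshold of 0.05. SE is the fold change divided by the square root of F. TPM were computed from GENCODE vM39 exon lengths, the union of all exons of a gene (40303 symbols, with at least 90.95% of the counts). Alternatives were DESeq2 1.42.0, limma-voom (limma 3.58.1), other normalizations and filters, fits of 2 groups, a replicate block, an *Xist* covariate, and each library left out. At the depth of these libraries the spread between pools exceeded sampling error (chi-square per degree of freedom of 19.7 to 63.8 within groups). The edgeR and DESeq2 steps were tested on simulated data.

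The 44 genes and the other lists were chosen with earlier results of these data known. Values of each library are given for genes with an unadjusted *P* under 0.05 in any comparison and for *Tlr2*, *Tlr4*, *Cd14*, *Myd88*, *Nfkb1*, *Rela*, *Nfkbia*, and *Tnfaip3*. Changes with such a *P* are given with SE and adjusted *P*. Of the 2 further lists, genes past the adjusted threshold were named, and otherwise the 3 with the smallest *P*. Marker lists of other cell types were summed per library.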

Additional observations from a re-analysis of the deposited data

How the results depend on the processing

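The number of the 44 genes that passed the adjusted threshold depended on the tool and the filter. For prednisolone against vehicle it was 1 (293 of all genes), and 3 with DESeq2 (684) or without a low-count filter (1019). For spironolactone against vehicle it was 0 (3 of all genes), with 5 in DESeq2 (266) and 7 without the filter (528). Between the drugs it was 2 (859 of all genes), with 4 in DESeq2 (1595), in edgeR on the 2 groups alone (1598), and with library totals (917), and 7 without the filter (1940), so that the counts over all genes moved as well. Over the 9 fits with 1 library left out, the numbers ranged from 0 to 2 (69 to 826 of all genes) and from 0 to 2 (0 to 34) for prednisolone and spironolactone against vehicle, and from 1 to 4 (232 to 1898) between the drugs. In those fits the median of the 44 genes between the drugs ranged from -0.143 to -0.046, the latter without spironolactone replicate 3. *Traf3* was called between the drugs throughout, and the number of genes lower with spironolactone than with vehicle stayed at 33 to 36 over the 11 alternatives and 34 to 38 with a library left out. The cause of the changed counts was not tested.

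Signs were followed for each gene in the comparisons where its unadjusted *P* was under 0.05 and for the 8 genes always named against vehicle. Among these, *Nfkb1* and *Myd88* turned. *Nfkb1* was 0.0032 with library totals for prednisolone and 0.0123 with upper quartile scaling for spironolactone. With a library left out, *Nfkb1* ranged from -0.0884 (without prednisolone replicate 1) to 0.0363 (without prednisolone replicate 2) for prednisolone and from -0.0508 (without spironolactone replicate 3) to 0.0353 (without spironolactone replicate 1) for spironolactone. *Myd88* ranged from -0.0669 (without vehicle replicate 1) to 0.1176 (without spironolactone replicate 1) for spironolactone.

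The main fit did not pair libraries by replicate number. Correlations of their deviations from the group means were -0.038 to 0.151 for the same number and -0.168 to 0.044 for other numbers, and 1 of 9 libraries correlated best with its own number in both other groups. The highest was between vehicle and spironolactone replicates 3 (0.151), and replicates 1 of these groups were at 0.117. Same-number correlations with prednisolone were -0.038 to 0.02. Whether libraries of the same number shared a batch was not tested. With a replicate block the counts of genes that passed were 1, 0, and 3 (336, 8, and 1082 of all genes, against 293, 3, and 859 without it). The added gene was *Nfkb2* between the drugs.

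Depth did not limit the levels, since every one of the 44 genes had at least 341 counts in each library.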
